A study of Homo sapiens with 7 samples.

Results

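The replication-dependent histone genes are the 70 of 19974 protein-coding RefSeq genes on chromosomes 1 to 22 and X whose symbol begins with H2AC, H2BC, H3C or H4C and a digit, or is one of H1-1 to H1-6. They comprise 6 genes for the linker histone H1 and 64 for the core histones, namely 17 for H2A, 19 for H2B, 13 for H3 and 15 for H4. Chromosome 6 holds 55 of them, chromosome 1 holds 13, and chromosomes 12 and 21 hold 1 each. RUNX2 and the histone mark H3K27ac were mapped by ChIP-seq (chromatin immunoprecipitation with sequencing) in KARPAS-45, a T-cell acute lymphoblastic leukemia (T-ALL) line with a KMT2A rearrangement, and in PER-117, another T-ALL line. The study concerned the dependency of immature and KMT2A-rearranged T-ALL on RUNX2. Each line and antibody has 1 library, so no value below has a replicate error, a test or a p-value, and differences between the lines are differences between 2 libraries. No treatment of the cultures is given, and KARPAS-45 was kept in 20% and PER-117 in 10% fetal bovine serum. They were crosslinked with 1.1% formaldehyde for 10 min, and 10 µg of antibody (RUNX2 clone D1H7 or H3K27ac ab4729) was used on fragments of 200 to 300 bp.

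Histone genes of this class supply the bulk of the histones that package newly copied DNA, and their transcription rises as cells enter S phase. NPAT, a coactivator phosphorylated by cyclin E and CDK2, gathers at the gene clusters in nuclear histone locus bodies, and the transcripts end in a stem-loop bound by SLBP in place of a poly(A) tail. Many H2A and H2B genes lie head to head and share a promoter. RUNX2 is a Runt-domain transcription factor that binds DNA together with CBFB, and is best known for its role in bone formation. H3K27ac, the acetylation of lysine 27 of histone H3, marks active promoters and enhancers.

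The RUNX core sequences near summits in histone promoters are shown first, to set the bases beside the peaks. The genes with the strongest KARPAS-45 peaks, H4C5 and H1-2, had no core in their promoters. The summits of those peaks lay 301 and 234 bp past the gene ends, outside the bases searched, so the sequence under them was not examined. The searched cores were TGTGGT and TGCGGT on both strands of the RefSeq promoter table (GRCh38.p14, 250 bases before to 50 after the start), which held 64 of the 70 genes (all but H2AC12, H2BC12L, H3C11, H3C12, H4C1 and H4C3). Each run of 30 bases is written 5′ to 3′ on the strand of the gene, with the core, or its complement where it lies on the other strand, in capitals. The first 5 genes had peaks in both lines, the next 3 had a peak in 1 line, and the last had no RUNX2 peak.
H3C2: ggcaagcttttcTGTGGTtttgccatggct
H4C4: agatttaacagcTGTGGTttcaagatgtct
H2AC11: tcccgttcacttTGTGGTtgctcgtagtga
H2BC7: cctaatttgcatACCACAgggcacacagag
H2BC5: cctcatttgaatACCGCAtctataaatgaa
H2BC10: ccagcattttccTGTGGTcatttgacggta
H2BC15: aaccaatgggatTGCGGTtttgaaaaacac
H2BC18: accagcccgtttTGCGGTagttcggattac
H2AC1: cagccctagaaaTGTGGTtctcgtgttgct

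The H3C2 run lies at chr6:26032055-26032084 on the minus strand. The middle of its core was 5 bp from the KARPAS-45 summit and 55 bp from the PER-117 summit. The H4C4 run (chr6:26189071-26189100, minus strand) was 12 bp from the KARPAS-45 summit and 1 bp from the PER-117 summit. In H2AC11 (chr6:27133030-27133059, plus strand) the core begins at the base before the start, 10 bp from the KARPAS-45 and 19 bp from the PER-117 summit. The core of H2BC7 (chr6:26199401-26199430, plus strand), which abuts the octamer that many H2A and H2B promoters carry, coincided with the KARPAS-45 summit at a distance of 0 bp and was 159 bp from the PER-117 summit. At H2BC5 (chr6:26158073-26158102, plus strand) the distances were 47 and 277 bp, to the weaker of its peaks. For H2BC10 (chr6:26272929-26272958, plus strand) the PER-117 summit was 21 bp away, and no KARPAS-45 peak lay at the gene. The H2BC15 core (chr6:27838462-27838491, plus strand) was 1 bp from a KARPAS-45 summit, and the nearest PER-117 summit was 7338 bp away. The H2BC18 core (chr1:149812359-149812388, minus strand) was 29 bp from a PER-117 summit and 19317 bp from the nearest KARPAS-45 summit. H2AC1 (chr6:25726546-25726575, minus strand) has its core at the same offset from the start as H2AC11, with the nearest KARPAS-45 summit 5960 bp away. These genes were picked after their summits had been seen, so the short distances describe them and support nothing about the set.

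Over all 64 promoters the cores were no more frequent than elsewhere. TGTGGT was present in 9 histone promoters (14.1%), against 14.5% of all 15813 protein-coding promoters in the table. TGCGGT was present in 6 (9.38%), against 10.97%, and either core in 13 (20.3%), against 23.7%. Where a KARPAS-45 summit lay inside the promoter itself, 9 of 19 histone promoters (47.4%) held either core, against 31.5% of all promoters with such a summit. Without a summit it was 4 of 45 (8.89%), against 19.4%. In PER-117 the counts were 4 of 9 (44.4%) with a summit, against 39.1%, and 9 of 55 (16.4%) without, against 20.6%. The remaining 10 of 19 and 5 of 9 histone promoters with a summit held neither core. These counts are of genes, and overlapping promoters share cores and summits, so they are not independent. In KARPAS-45 the same core and summit counted for H2BC7, H2AC7 and H3C4, and another for H2AC15 and H2BC15. The 47.4% thus rests on fewer distinct sites than genes.

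Other elements were far more frequent in histone promoters. CCAAT, the box bound by NF-Y, was found in 54 of 64 (84.4%) against 42.1% of all promoters, in every H1, H2A, H2B and H3 promoter of the table and in 3 of 13 H4 promoters. TATAAA was found in 43 (67.2%) against 12.4%. The octamer ATTTGCAT, bound by OCT1 (POU2F1), was found in 26 (40.6%) against 2.22%, in 11 of 16 H2A and 14 of 18 H2B promoters but in 1 of 11 H3 and in 0 of 6 H1 and 13 H4 promoters. The 2 stretches that follow carry these elements at genes with some of the strongest RUNX2 peaks, with every match to the 5 words, on either strand, in capitals. The first is the whole space between the starts of H2BC11 and H2AC11 (chr6:27132796-27133042, plus strand), with 4 CCAAT boxes, 3 TATAAA matches of which 2 overlap, and 1 octamer. The second is the 250 bases before the H4C4 start (chr6:26189113-26189362, minus strand), with a TGTGGT core at -80 in addition to the one past the start, TATAAA at -29 and no CCAAT box.
H2BC11 to H2AC11: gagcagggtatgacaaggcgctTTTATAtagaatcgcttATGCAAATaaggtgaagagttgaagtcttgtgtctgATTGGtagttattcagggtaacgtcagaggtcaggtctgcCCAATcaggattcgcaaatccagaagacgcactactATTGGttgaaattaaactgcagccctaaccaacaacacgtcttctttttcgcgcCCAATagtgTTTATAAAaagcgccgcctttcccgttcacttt
H4C4 upstream: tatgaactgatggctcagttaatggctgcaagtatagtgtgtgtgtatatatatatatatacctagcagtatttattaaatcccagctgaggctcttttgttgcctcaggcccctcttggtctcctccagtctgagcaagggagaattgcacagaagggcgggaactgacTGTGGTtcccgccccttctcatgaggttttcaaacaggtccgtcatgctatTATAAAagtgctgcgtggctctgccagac

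The 4 peak lists held 42911 RUNX2 intervals in KARPAS-45 versus 21027 in PER-117, and 63265 and 53263 H3K27ac regions covering 167 and 76.2 Mb. Read depth was not analysed here, and a gene without a peak is one where none was called at an unknown depth. Fold enrichment is the authors' value for a peak and ranks peaks within its own list. The H3K27ac lists matched the T-cell label at most marker genes: regions lay at 10 of 10 T-lineage markers in KARPAS-45 and 9 of 10 in PER-117, where CD5 had none. Of 6 B-lineage markers 3 had a region in each line, with none at PAX5, EBF1 or MS4A1. Of 6 myeloid markers 1 had a region in each line, and of 6 erythroid markers 1 did in KARPAS-45 against 3 in PER-117.

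Counted by gene, histone genes carried RUNX2 more often in PER-117 than in KARPAS-45, the reverse of the order of the lists. Counted by distinct peaks at these genes, KARPAS-45 had more, 43 against 40. In KARPAS-45, 38 of 70 histone genes (54.3%) had a RUNX2 peak no more than 1 kb from the start or end of the gene, where 48.3% of all protein-coding genes had one. In PER-117 the count was 45 (64.3%), where 32.5% of all genes had one. The KARPAS-45 share was thus near the share of all genes, and the PER-117 share was well above it. RUNX2 was called in both lines at 36 histone genes (51.4%; 29.2% of all genes), in KARPAS-45 only at 2 (2.86%; 19.2%), in PER-117 only at 9 (12.9%; 3.35%) and in neither at 23 (32.9%; 48.3%). When the KARPAS-45 list was shortened to its 21027 strongest peaks, 27 histone genes (38.6%) remained bound, beside 27.6% of all genes. The 11 genes that dropped out then were H2AC18, H4C15, H2BC21, H2AC20, H2AC21, H1-3, H4C11, H4C12, H3C12, H2AC17 and H2BC17. At a −log10 q of 10 or more the order turned, with 27 genes bound in KARPAS-45 versus 25 in PER-117, against 29.8% and 17.2% of all genes.

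**Figure D1:**
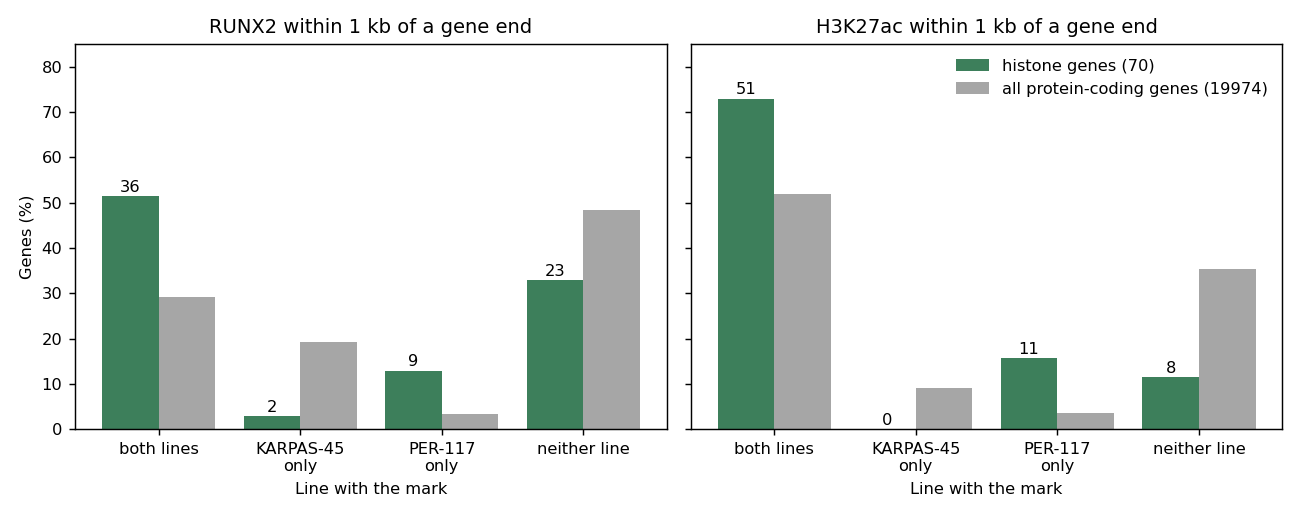
Share of genes (percent) with RUNX2, and with H3K27ac, within 1 kb of a gene end in both lines, in KARPAS-45 only, in PER-117 only and in neither, for the 70 histone genes beside all 19974 protein-coding genes. The PER-117-only classes are larger among histone genes (12.9% and 15.7%) than among all genes (3.35% and 3.63%), and the KARPAS-45-only classes are smaller (2.86% and 0%, against 19.2% and 9.18%).

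Acetylation, counted by gene, was likewise more frequent in PER-117. An H3K27ac region lay at a gene end of 51 histone genes (72.9%) in KARPAS-45, beside 61% of all genes, and of 62 (88.6%) in PER-117, beside 55.5%. All 51 histone genes acetylated in KARPAS-45 were also acetylated in PER-117 (51.9% of all genes were in both). Of all 12193 protein-coding genes acetylated in KARPAS-45, 10359 were also acetylated in PER-117. A further 11 histone genes were acetylated in PER-117 only (15.7%, against 3.63% of all genes). These 11 were H2BC18, H3C13, H2AC25, H2BC26, H2BC3, H4C3, H2BC8, H4C6, H4C7, H3C7 and H2BC9. No histone gene was acetylated in KARPAS-45 only, where 9.18% of all genes were, and 8 were acetylated in neither line (11.4%; 35.3%).

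Every RUNX2-bound histone gene was acetylated in the same line, as were nearly all bound protein-coding genes. Of these, 9231 of 9653 were acetylated in KARPAS-45 and 6334 of 6494 in PER-117. Thus 38 histone genes carried both marks in KARPAS-45 (46.2% of all genes did) and 45 in PER-117 (31.7%). Among acetylated genes, 38 of 51 histone genes (74.5%) had RUNX2 in KARPAS-45, close to the 75.7% of all acetylated genes. In PER-117 it was 45 of 62 (72.6%), where 57.1% of all acetylated genes had RUNX2. Among genes acetylated in both lines, 38 of 51 histone genes had RUNX2 in KARPAS-45 (74.5%; 81.4% of all such genes) and 40 of 51 in PER-117 (78.4%; 59.1%). Of the 9 histone genes with RUNX2 in PER-117 only, 5 (55.6%) were also acetylated in PER-117 only and 4 in both lines. Over all 670 genes with RUNX2 in PER-117 only, 24% were acetylated in PER-117 only.

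The H1 genes encode linker histones, which bind DNA where it enters and leaves the nucleosome. The shares of all genes given above are the background for each count by family and by cluster. RUNX2 was called in both lines at 4 of the 6 H1 genes: H1-2, H1-3, H1-4 and H1-5. At H1-2 (chr6:26055740-26056470) the strongest peak had a fold enrichment of 22.8 in KARPAS-45, above 95.1% of all bound genes of that line, and of 8.76 in PER-117. At H1-5 the values were 12.5 and 8.13, and H2AC16 shared that peak. H1-4 had 7.46 and 3.47, and H1-3 had 5.70 and 3.47. The same 4 genes were acetylated in both lines, each with its gene and 1 kb flanks wholly covered in both. H1-1 and the testis-specific H1-6 carried neither mark in either line, although H1-1 lies 2704 bp from a KARPAS-45 RUNX2 peak.

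H4, which pairs with H3 at the core of the nucleosome, is encoded by genes that make the same or nearly the same protein. Of the 15 H4 genes, 10 had RUNX2 in KARPAS-45 against 11 in PER-117, and 11 and 14 were acetylated. H4C5 (chr6:26204610-26205021) had the strongest RUNX2 peak of any histone gene in KARPAS-45, with a fold enrichment of 25.7 (above 96.6% of bound genes), and 10.6 in PER-117 (above 85.5%). H4C4 (chr6:26188710-26189112) had 21.6 and 14.2, H4C13 had 10.9 and 10.1, H4C2 had 10.4 and 6.94, and H4C9 had 6.43 and 8.13. H4C8, the last gene of the longest cluster, had 6.90 and 4.001. H4C16, alone on chromosome 12 (chr12:14770720-14771131), had RUNX2 in PER-117 only (4.80) and H3K27ac in both lines.

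Of the 13 H3 genes, 6 had RUNX2 in KARPAS-45 versus 9 in PER-117, and 9 and 11 were acetylated. H3C2 (chr6:26031589-26032099) and the neighbouring H2AC4 shared a peak of 21.6 in KARPAS-45 (above 94.2% of bound genes) and of 15.5 in PER-117 (above 94.5%). H3C11 shared the peak of H4C13 (10.9 and 10.1), and H3C1 shared a peak with H4C1 (7.65 and 6.39). H3C4, with an annotated span that runs into H2AC7, had 10.7 and 5.00, and H3C10 had 8.74 and 4.27. H3C13, H3C3 and H3C7 had RUNX2 in PER-117 only, with 9.78, 5.39 and 4.38.

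H2A and H2B form the dimers that flank the H3 and H4 tetramer. Of the 17 H2A genes, 10 had RUNX2 in KARPAS-45 against 11 in PER-117, and 15 and 16 were acetylated. Of the 19 H2B genes, 8 and 10 had RUNX2, and 12 and 17 were acetylated. Besides H2AC4, the highest by the lower of the 2 values were H2BC5 (20.4 and 16.9, above 93.2% and 95.8% of bound genes; the highest histone gene in PER-117), the pair H2BC4 and H2AC6 (12.4 and 12.1) and the pair H2BC11 and H2AC11 (21.1 and 11.7). The H2BC5 peak lay 630 bp (KARPAS-45) and 626 bp (PER-117) past the far end of an annotated span of 13229 bp (chr6:26158121-26171349). A second, weaker peak lay nearer its start in each line, with 7.46 and 5.60. H2AC16 had 12.5 and 8.13, the pair H2AC7 and H2BC7 had 10.7 and 5.00, and H2BC12 had 6.43 and 8.13.

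**Figure D2:**
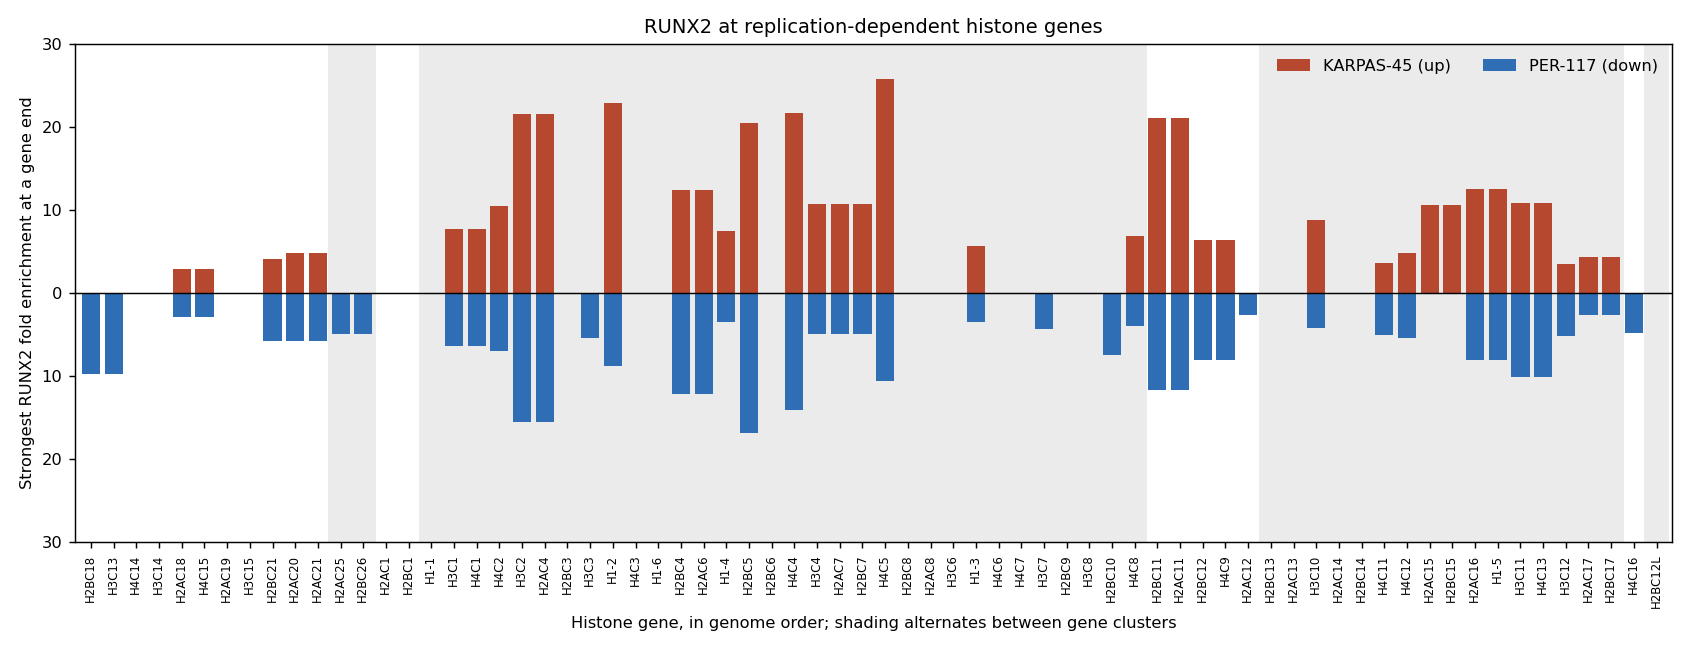
Highest RUNX2 fold enrichment (the authors' linear value per peak) within 1 kb of a gene end for the 70 histone genes in genome order. Bars point up for KARPAS-45 and down for PER-117, 1 library each, and genes without a called peak have no bar. Values run from 2.86 to 25.7 in KARPAS-45 and from 2.62 to 16.9 in PER-117, and the highest stand on chromosome 6.

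Over the bound genes, the median of the highest fold enrichment was 10.5 for histone genes and 7.16 for all bound genes in KARPAS-45, and 5.78 and 5.80 in PER-117. Histone genes share peaks, so the count of distinct peaks is lower than the count of gene and peak pairs. There were 43 distinct peaks at histone genes in KARPAS-45, of which 22 lay at 1 histone gene, 17 at 2 and 4 at 3 or more, and 40 in PER-117 (21, 16 and 3). Counted once each, their median fold enrichment was 5.14 in KARPAS-45, below the 6.24 of all gene-end peaks, and 5.25 in PER-117, beside 5.39. The high median per gene in KARPAS-45 thus goes with several weaker peaks at the same genes. Of the 43 KARPAS-45 peaks, 30 (69.8%) overlapped a PER-117 peak, while 47.9% of all 10524 gene-end peaks of that list did. Of the 40 PER-117 peaks, 30 (75%) overlapped a KARPAS-45 peak, beside 78.9% of 6433. All 43 KARPAS-45 summits lay in H3K27ac regions of both lines, where 91.4% and 78.3% of all gene-end summits lay in those of KARPAS-45 and PER-117. Of the 40 PER-117 summits, 35 lay in regions of KARPAS-45 and all 40 in those of PER-117, beside 90.7% and 92.0%. Over the 30 KARPAS-45 peaks with a partner, the fold enrichments of the lines had a Spearman rho of 0.529, given as a description of peaks that come from the same 2 libraries.

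**Figure D3:**
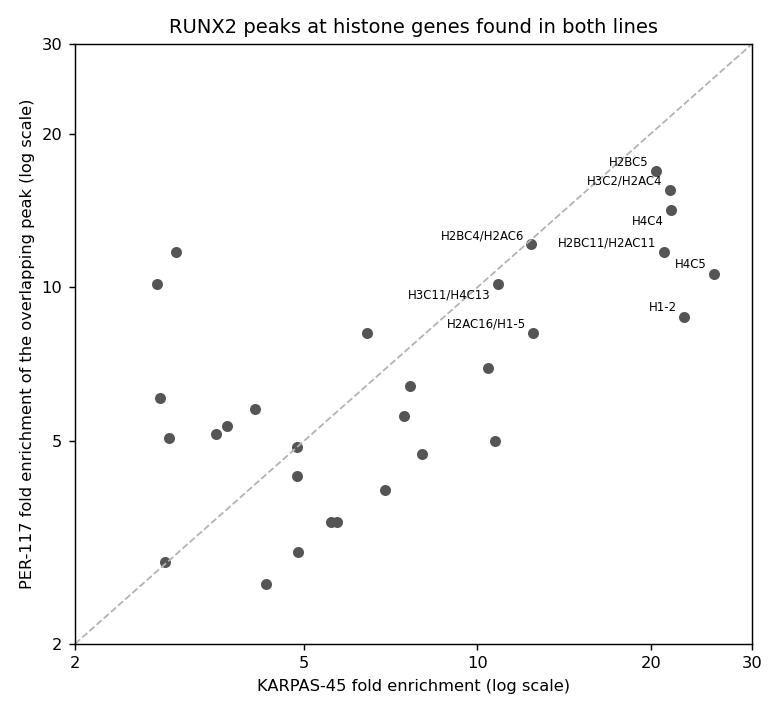
RUNX2 fold enrichment in PER-117 against KARPAS-45 (linear values, log axes) for the 30 KARPAS-45 peaks at histone genes that overlap a PER-117 peak. The value is higher in KARPAS-45 at 20 of the 30, and the scales of the lists are not shared.

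The peaks sat on and beyond these short genes more than before them. Of the 43 KARPAS-45 summits, 11 lay before the start of the nearest histone gene (9 to 203 bp), 18 inside a histone gene and 14 past the end (74 to 943 bp). In PER-117 3 lay before a start, 29 inside and 8 past an end (36 to 722 bp). The peaks of H4C5 and H1-2 were of the last kind: their summits lay 301 and 234 bp past the end in KARPAS-45 and 273 and 239 bp in PER-117. Among summits within 250 bp of the nearest start, 11 of 22 (50%) lay upstream at histone genes in KARPAS-45, against 71.9% of 6092 at all genes. In PER-117 it was 2 of 20 (10%), against 55.0% of 3392. In both lines the share upstream was lower at histone genes than at all genes. Between head-to-head starts an upstream position can span only part of 250 bp, and no allowance was made for this.

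**Figure D4:**
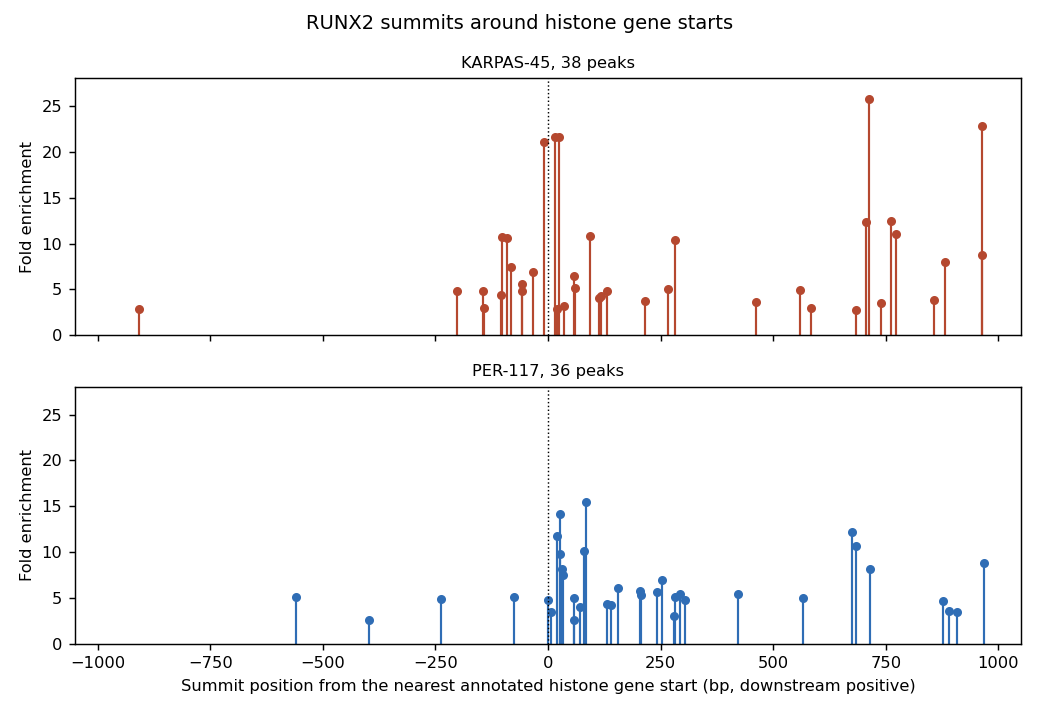
Position of RUNX2 summits at histone genes relative to the nearest annotated histone gene start (bp, negative is upstream on the strand of the gene), for the 38 KARPAS-45 and 36 PER-117 peaks within 1000 bp. KARPAS-45 summits lie on both sides of the start, and PER-117 summits mostly downstream.

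Among the 64 genes with a strand in the table, 11 pairs of H2A and H2B genes lay head to head, with 194 to 248 bp between the starts. This is closer than the window used for calling a gene end, so one peak usually counts for both genes and joint calls were nearly fixed by the rule. Both genes were bound in 6 pairs in each line, and in the other 5 neither was. Outside these pairs, H2BC12 and H2AC12, 248 bp apart and the latter without a strand in the table, were both bound in PER-117, and H2BC12 alone in KARPAS-45. Bound in both lines were H2BC21 and H2AC20, H2BC4 and H2AC6, H2AC7 and H2BC7, H2BC11 and H2AC11, and H2AC17 and H2BC17. H2AC15 and H2BC15 were bound in KARPAS-45 only, by 1 peak of 10.6 whose summit lay between the starts. H2AC25 and H2BC26 were bound in PER-117 only (4.95). The other 4, H2AC1 and H2BC1, H2BC8 and H2AC8, H2BC13 and H2AC13, and H2AC14 and H2BC14, were bound in neither. A summit lay between the starts in 3 pairs in KARPAS-45 (H2AC7 and H2BC7, H2BC11 and H2AC11, H2AC15 and H2BC15) and in 0 in PER-117. Of the 11 pairs, both genes were acetylated in 8 in KARPAS-45 versus 10 in PER-117. H2AC8 was acetylated in KARPAS-45 without H2BC8.

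By position the genes formed 6 clusters, with gaps of over 100 kb between them, and 2 lone genes. The longest spans 269 kb at chr6:26017032-26285534, from H1-1 to H4C8, and holds 32 of the genes. RUNX2 was called at 17 of them in both lines and at 3 (H3C3, H3C7 and H2BC10) in PER-117 only, and H3K27ac at 23 in KARPAS-45 against 30 in PER-117. The median of the highest fold enrichment at its bound genes was 10.7 in KARPAS-45 versus 6.67 in PER-117. H3K27ac covered 49.3% of this span in KARPAS-45 against 49.9% in PER-117. Within it the 10 neighbouring genes from H2BC8 to H2BC10 (57.2 kb), singled out after their values were seen, had RUNX2 at 1 gene in KARPAS-45 (H1-3) and at 3 in PER-117 (H1-3, H3C7 and H2BC10). They were acetylated at 5 genes in KARPAS-45 and at all 10 in PER-117, where H3K27ac covered 54.2% of the stretch, against 30.6% in KARPAS-45. H2BC3, H4C3, H2BC8, H4C6, H4C7 and H2BC9 in this cluster were acetylated in PER-117 only and had RUNX2 in neither line.

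The cluster of 16 genes at chr6:27807479-27893891 (86.4 kb, H2BC13 to H2BC17) was acetylated throughout, at 16 genes in each line. RUNX2 lay at 12 in KARPAS-45 versus 10 in PER-117, with medians of 9.68 and 5.28. This was the only cluster with more bound genes in KARPAS-45, and H2AC15 and H2BC15 make up the difference. The weaker bound genes of this cluster were H4C11 (3.59 and 5.06), H4C12 (4.81 and 5.39), H3C12 (3.51 and 5.16) and the pair H2AC17 and H2BC17 (4.29 and 2.62). Its 4 acetylated genes without RUNX2 in either line were H2BC13, H2AC13, H2AC14 and H2BC14. The small cluster at chr6:27132316-27147562 (15.2 kb, 5 genes) was acetylated at all 5 genes in both lines and bound at 4 in KARPAS-45 against 5 in PER-117. It had the highest medians of any cluster, 13.7 and 8.13, but its genes share peaks. In KARPAS-45 the strongest peak was 21.1 for both H2BC11 and H2AC11 and 6.43 for both H2BC12 and H4C9. The 13.7 is the value between these and belongs to no gene. The fifth gene, H2AC12, had a PER-117 peak of 2.62, the lowest value in the set, which H2AC17 and H2BC17 also had.

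On chromosome 1, the 11 genes at chr1:149782689-149887965 (105 kb) had RUNX2 at 5 in KARPAS-45 versus 7 in PER-117, and H3K27ac at 6 and 8. Their median fold enrichments, 4.10 and 5.78, were below those of the chromosome 6 clusters in KARPAS-45. H2BC21, which had 4.10 and 5.78, and H2AC20 and H2AC21, which both had 4.85 and 5.78, form its strongest group in KARPAS-45. H2BC18 and H3C13 shared a PER-117 peak of 9.78. In KARPAS-45 a peak lay inside the long annotated span of H2BC18 but not near its ends, and the nearest KARPAS-45 peak to H3C13 was 20087 bp away. H2AC18 and H4C15 shared a weak peak of 2.86 and 2.89. Promoters in this cluster are near copies: those of H4C14 and H4C15, H3C14 and H3C15, and H2AC18 and H2AC19 were 100% identical over the bases compared, and on chromosome 6 those of H4C11 and H4C12 were 98.3% identical. Reads from such copies cannot be told apart with certainty, and how they were assigned is not given in the sources used here, so calls at these 8 genes are uncertain. Without the 11 genes of this cluster, RUNX2 lay at 33 and 38 of 59 histone genes in KARPAS-45 and PER-117.

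The pair H2AC25 and H2BC26 (chr1:228457364-228458558) had RUNX2 and H3K27ac in PER-117 and neither in KARPAS-45, where the nearest RUNX2 peak was 28342 bp from H2BC26. H2AC1 and H2BC1 (chr6:25726063-25727345), which encode testis histones, had neither mark in either line. The same held for H2BC12L, alone on chromosome 21 (chr21:43565182-43565648). The full set without either mark in either line was H1-1, H1-6, H2AC1, H2BC1, H2BC12L, H3C14, H3C15 and H4C14. Thus 3 of the 8 (H3C14, H3C15 and H4C14) belong to the near copies. H2AC19, H2BC6, H2AC8, H3C6, H3C8, H2BC13, H2AC13, H2AC14 and H2BC14 were acetylated in both lines and had RUNX2 in neither.

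H3K27ac lay over histone genes as wide blocks. The 51 genes acetylated in KARPAS-45 were covered by 20 regions with a median width of 6390.5 bp, against 2515 bp for all gene-end regions. The 62 in PER-117 were covered by 27 regions with a median of 6471 bp, against 1651 bp. The widest in KARPAS-45 ran over 57482 bp (chr6:26152515-26209996) and took in 8 genes, H1-4, H2BC5, H2BC6, H4C4, H3C4, H2AC7, H2BC7 and H4C5. It was wider than 99.8% of that list. The widest in PER-117 ran over 38650 bp (chr6:26020069-26058718), took in H3C1, H4C1, H4C2, H3C2, H2AC4, H2BC3, H3C3 and H1-2, and was the widest region of the whole list. In KARPAS-45 these genes lay in 3 regions, with none at H2BC3.

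The blocks ranked differently in the lists by fold enrichment. Histone regions had 1.40 to 4.37 in KARPAS-45, with a median of 1.85 below the 2.59 of all gene-end regions. In PER-117 they had 2.39 to 11.3, with a median of 8.03 above the 5.80 of all. Of the 70 genes with 1 kb flanks, 32 were wholly covered in KARPAS-45 against 49 in PER-117, and 18 and 8 had no covered base. The 18 are 1 fewer than the 19 genes without a region at a gene end, because 970 bp inside the 29682 bp span of H2BC18 were covered. When the KARPAS-45 list was reduced to its widest regions, up to the total length that the PER-117 regions cover, 37 histone genes (52.9%) were still acetylated, where 16.0% of all genes were. Regions were kept by width, and those at histone genes were wide, so this contrast restates their width.

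**Figure D5:**
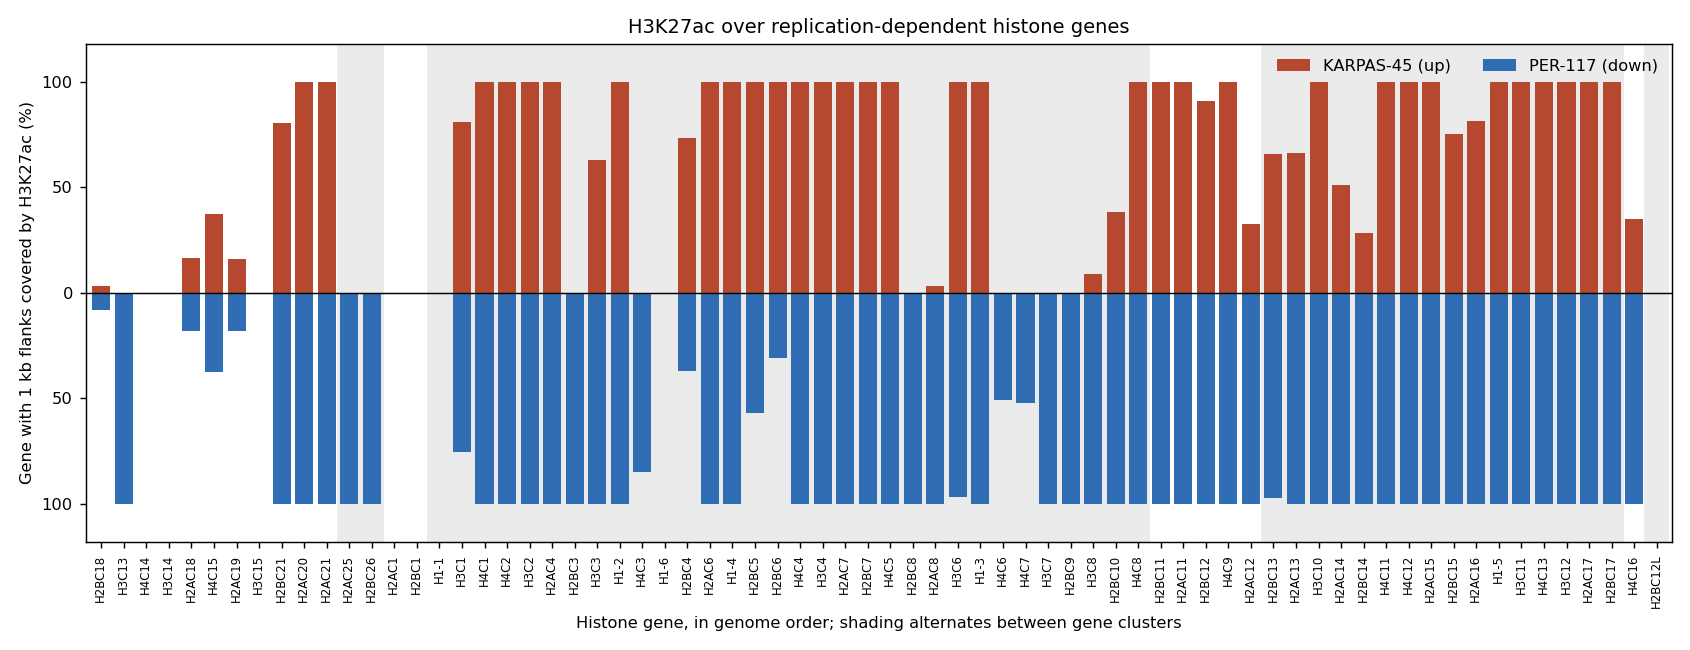
Share of each histone gene with 1 kb flanks covered by H3K27ac regions (percent of bases), for the 70 genes in genome order in KARPAS-45 and PER-117, 1 library each. Coverage is 100% at 32 genes in KARPAS-45 versus 49 in PER-117, and 0% at 18 and 8.

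The listed genes that supply and handle histones, among them chaperones of a variant, were acetylated in both lines at 22 of 22 (51.9% of all genes). RUNX2 lay at 21 of them in KARPAS-45 (48.3% of all genes) and at 14 in PER-117 (32.5%), all 14 of which were also bound in KARPAS-45. This list therefore had more bound genes in KARPAS-45, as protein-coding genes as a whole did. The 6 highest by the lower of the 2 values were DAXX (fold enrichment 11.7 in KARPAS-45 against 14.7 in PER-117), a chaperone of the H3.3 variant, CPSF2 (8.32 and 13.5), a subunit of the machinery that cleaves histone pre-mRNA, HIRA (7.57 and 7.05), another H3.3 chaperone, SLBP (9.82 and 6.65), ASF1B (6.51 and 6.96), which carries H3 and H4, and NPAT (14.3 and 5.81). Bound in KARPAS-45 only were LSM10, LSM11, ASF1A, SRRT, CHAF1A, ZNF473 and RBBP7. CHAF1B, a subunit of the chromatin assembly factor CAF-1, was bound in neither.

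Histone variant genes outside the replication-dependent set had RUNX2 at 10 of 13 in KARPAS-45 versus 6 in PER-117 (48.3% and 32.5% of all genes), and H3K27ac at 11 and 9 (61% and 55.5%). The list had 15 names, of which H2AW and H2BU1 are older symbols of H2AC25 and H2BC26 and are counted with the histone genes. H2AZ2, for the H2A.Z variant found at promoters, had 39.1 and 33.9, above every replication-dependent gene in both lines. H2AX, for the variant phosphorylated at DNA breaks, had 38.1 and 11.2. H3-3B had 8.21 and 11.3, H2AZ1 had 12.9 and 7.36, and H3-3A had 5.26 and 4.97. H3-4, MACROH2A2 and H2AJ had RUNX2 in neither line. Within the spans of the clusters lie 3 other protein-coding genes, of which 2 had RUNX2 in KARPAS-45 against 0 in PER-117, and 2 and 1 were acetylated.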

How the data were processed

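RUNX2 and H3K27ac were mapped in 2 T-ALL lines with 1 library per line and antibody, and the 3 input libraries were left unused. Per the submitters' processing notes, STAR 2.4.2a, MACS2 and build hg38 were used. The sources used here do not give their roles or thresholds, nor which input went with which list. The authors deposited 10 columns per peak: among them a display score, a linear ratio (fold enrichment), and a −log10 p and q. The deposited coordinates, widths and summits (other values) were taken unchanged, and column 10 of the H3K27ac lists, 100 throughout, was not used as a summit. Lines of 1 RUNX2 peak with several summits were joined, keeping the summit of highest fold, which reduced 46275 and 23043 lines (including 127 and 40 on other sequences) to 42911 and 21027 intervals.

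Genes, spans and strands came from RefSeq tables of GRCh38.p14. A gene was called marked when an interval overlapped the 1 kb on either side of either end by at least 1 bp. Shares of all 19974 protein-coding genes, by the same rule, stand beside the first count of each kind, and no p-value was computed. Clusters were split at gaps over 100 kb. Promoter identity allowed a shift of 20 bp. Exons were not resolved. All members may be named, with values for H1 genes, genes outside the longest cluster, up to 5 per family bound in both lines and those bound in 1 line. Up to 6 of each further list were named, and 1 result is not reported here. Members and lists were chosen with earlier results of these data known, and H2BC5 and the stretch H2BC8 to H2BC10 were described after their values were seen. Alternatives were windows of 500 bp and 2.5 kb, annotated starts only, stricter q, the 5000 strongest RUNX2 peaks, summits, stricter overlap, H3K27ac at −log10 q of 2 or more, equal covered length or the wider 50%. A shortened KARPAS-45 RUNX2 list and leaving out the chromosome 1 cluster were added after the data were seen. The software was matplotlib 3.10.9, scipy 1.17.1, pandas 2.3.3 and numpy 2.4.6 under Python 3.11.15. The overlap code was checked on 500 simulated windows, of which 0 differed from a direct count.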

Additional observations from a re-analysis of the deposited data

How the results depend on the processing

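Of 97 values recomputed under alternatives for 27 results, 77 stayed within 1.5 times the value given and 20 moved further. The 77 include PER-117 counts under settings that altered only the KARPAS-45 lists, and these counts could not move. The count of RUNX2-bound histone genes in PER-117, and with both marks, fell to 25 at a −log10 q of 10 or more. At that cut 17.2% of all genes were bound in PER-117 and 16.8% had both marks. With the 5000 strongest peaks per line both counts were 8 in KARPAS-45 versus 14 in PER-117. Genes bound in KARPAS-45 only numbered 4 with a window of 500 bp and 4 when the summit had to lie in the window. The shares of all genes bound in KARPAS-45 only were then 18.7% and 19.0%. At a −log10 q of 10 or more, 19 genes were bound in both lines, 8 in KARPAS-45 only and 37 in neither, and with the 5000 strongest peaks 8, 0 and 56. With the KARPAS-45 list cut to 21027 peaks, 20 genes (28.6%) were bound in PER-117 only, while the share of all genes rose from 3.35% to 12.6%. Peaks with a partner in the other line fell to 19 in each line when summits had to lie within 100 bp, and to 12 in each at the stricter q. Counting either RUNX core in place of TGTGGT raised bound genes with a core from 7 to 11 of 43 (25.6%), while the share of all promoters rose from 14.5% to 23.7%, and left unbound genes at 2 of 21. PER-117 had more marked histone genes than KARPAS-45 in 7 of 8 settings for RUNX2, 7 of 7 for H3K27ac and 8 of 9 for both marks. The exceptions were those at a −log10 q of 10 or more. The shortened RUNX2 list and the equal covered length took intervals from KARPAS-45 only. They could not have turned this order, although they are counted among the settings. No paired analysis was possible because each line and antibody has 1 library and no replicate. Depth is unknown, the KARPAS-45 H3K27ac list reaches a −log10 q of 0.431 and that of PER-117 reaches 1.01, so a gene marked in 1 line only is a call and not a measured absence in the other.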
